A study of Mus musculus with 9 samples.

Results

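The 8 alpha- and beta-crystallin genes listed in the deposited tables, Cryaa, Cryab, Cryba1, Cryba2, Cryba4, Crybb1, Crybb2 and Crybb3, were followed across 9 RNA-seq libraries of mouse anterior lens capsule. This is the anterior basement membrane of the lens, which carries a single sheet of lens epithelium. They were selected by symbol alone and make up 8 of the 17527 genes in the tables, and all 8 were among the 13711 genes tested. The libraries fall into 3 groups of 3: aged mice treated with EGCG (epigallocatechin gallate, the main polyphenol of green tea), aged control mice and young control mice. No genotype, strain, age, sex, dose, route or duration of treatment is given in the sources used here. Whether libraries of a group are from different animals is not stated in the labels, so p-values reflect only the spread between samples, and this spread may be technical. Library totals ranged from 13184169 to 16528179 counts.

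Crystallins are the proteins that fill lens fibre cells and give the lens its clarity and refractive power. The alpha-crystallins are small heat shock proteins: Cryaa is made largely in the lens, Cryab also in muscle, heart and brain, and together they form large chaperone complexes that hold unfolding proteins in solution. The beta-crystallins belong to another family, which they share with the gamma-crystallins; they pair into dimers and larger oligomers and are divided into acidic (Cryba1, Cryba2, Cryba4) and basic (Crybb1, Crybb2, Crybb3) members. Their transcription in the lens is known to depend on the factors Pax6, Maf, Sox1, Sox2 and Prox1, and in humans, mutations in most of these genes cause inherited cataract.

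Alpha- and beta-crystallin transcripts took 25.9% ± 0.163 of all counts in aged EGCG libraries, 29.7% ± 0.945 in aged control libraries and 22.1% ± 0.141 in young control libraries (SD, n = 3 each). Relative to the trimmed-mean (TMM) scaling of all genes, 7 of the 8 genes were higher in aged control than in young control capsules, and Crybb3 was lower. Of all genes tested, 35.4% were called higher and 33.8% lower there. The median log2 fold change of the 8 was 0.59, against 0.85 for 66 other abundant genes. All 8 were lower in aged EGCG than in aged control capsules, where 10.3% of all genes tested were called lower and 13.8% higher. Of the 8 genes, 6 nevertheless stood above the young level in aged EGCG capsules, Cryba4 was not called different from it, and Crybb3 stood further below it. In that comparison 32.3% of all genes tested were called higher and 31.4% lower. Genes of similar length had a median of 0.34 there, against 0.29 for the 8. Several of the smaller differences depended on the processing: those of Cryba1, Cryba4 and Crybb1 on the scaling of the libraries, and these and that of Cryba2 from young control on a correction for gene length.

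Cryba4, Crybb1, Crybb2 and Crybb3 lie on chromosome 5 in neighbouring pairs, and their promoters are shown because the members of one pair, Crybb2 and Crybb3, moved in opposite directions with age. In the GENCODE M21 annotation of build GRCm38, Cryba4 (chr5:112246493-112252518, minus strand) and Crybb1 (chr5:112255815-112269585, plus strand) point away from each other across 3296 bases. Crybb2 (chr5:113058258-113070117, minus strand) and Crybb3 (chr5:113075839-113081584, minus strand) follow each other on one strand, 5721 bases apart, and the pairs are separated by 788672 bases. The 250 bases before the annotated start are printed 5′ to 3′ on the gene's own strand, from RefSeq on GRCm38.p6, at chr5:112252519-112252768 for Cryba4, chr5:112255570-112255819 for Crybb1, chr5:113070118-113070367 for Crybb2 and chr5:113081585-113081834 for Crybb3. Capitals mark the letters of a searched motif, on either strand.
Cryba4: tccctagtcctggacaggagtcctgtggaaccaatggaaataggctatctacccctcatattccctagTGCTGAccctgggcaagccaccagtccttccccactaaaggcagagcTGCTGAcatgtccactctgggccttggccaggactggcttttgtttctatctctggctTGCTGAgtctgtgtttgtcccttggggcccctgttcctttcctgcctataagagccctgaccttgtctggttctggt
Crybb1: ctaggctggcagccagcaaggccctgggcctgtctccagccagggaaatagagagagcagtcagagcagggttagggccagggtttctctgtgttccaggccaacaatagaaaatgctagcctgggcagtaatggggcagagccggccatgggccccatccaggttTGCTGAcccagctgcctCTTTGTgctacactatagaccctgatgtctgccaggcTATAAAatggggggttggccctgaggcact
Crybb2: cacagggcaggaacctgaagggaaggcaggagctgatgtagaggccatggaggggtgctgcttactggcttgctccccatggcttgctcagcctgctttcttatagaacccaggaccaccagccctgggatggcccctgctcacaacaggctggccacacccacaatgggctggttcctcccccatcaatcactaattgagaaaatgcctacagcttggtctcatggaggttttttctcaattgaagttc
Crybb3: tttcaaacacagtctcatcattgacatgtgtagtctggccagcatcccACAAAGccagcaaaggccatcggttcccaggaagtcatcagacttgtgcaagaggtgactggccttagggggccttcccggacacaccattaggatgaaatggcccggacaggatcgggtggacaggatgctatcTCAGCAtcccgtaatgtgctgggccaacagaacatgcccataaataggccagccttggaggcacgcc

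The RefSeq table held a promoter for 7 of the 8 genes, all but Cryab, and each was searched from 250 bases before to 50 bases after the start for 4 short motifs on both strands. The letters TGCTGA, one arm of the site that MAF proteins bind, were present in 6 of the 7 windows and in 19.5% of the 32851 windows of the table. The searched window of Crybb2 was the one without them, but GENCODE M21 lists 2 coding starts for Crybb2 and 7 for Crybb3. Which of these starts is used in the lens capsule was not tested. Cryba4 held 3 copies, starting 182, 135 and 77 bases before its start. In Crybb1 the motif began 84 bases before the start, followed at 67 bases by ACAAAG, a core letter run of SOX sites, read on the opposite strand, and at 30 bases by the TATA box letters TATAAA. In Crybb3, TGCTGA on the opposite strand began 67 bases and ACAAAG 202 bases before the start. TATAAA and ACAAAG each occurred in 3 of the 7 windows, against 13.6% and 18.7% of all windows, and the heat shock letters GAANNTTC occurred in 0 of the 7, against 7.86% of all. A match is a run of letters and no measured binding site; the only overlap of motif letters with a gene start was in Cryba2, whose TATAAA spans it.

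The other 4 genes lie apart. Cryaa is at chr17:31677807-31681733 and Cryab at chr9:50751325-50756636, both on the plus strand, and Cryba1 at chr11:77718615-77725283 and Cryba2 at chr1:74889934-74893143 are on the minus strand. All 8 are annotated as protein coding, and no run of 50 bases is shared between the transcripts of any 2 of them, so reads of that length could not be split between members. Cryab overlaps Hspb2, another small heat shock gene on the opposite strand, and the counting's use of strand is not known from the sources used here. The counts of Hspb2 were between 0.166% and 0.244% of those of Cryab in every library. Nufip2 overlaps Cryba1, with counts of 0.180% to 0.426% of those of Cryba1.

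Levels between genes are compared per length, as the deposited FPKM (reads divided by gene length and sequencing depth). The lengths implied by these values differ from the merged exon lengths in GENCODE M21. They are 2037 against 1479 bases for Cryab and 1030 against 2333 bases for Crybb3. The order of the genes and their shares of a summed FPKM rest on the implied lengths, and other lengths could change both. Cryaa was the most abundant of the 8 in every group, with 86611 ± 1780 FPKM in aged EGCG, 97327 ± 618 FPKM in aged control and 67159 ± 654 FPKM in young control libraries (SD, n = 3 each). Crybb2, the most abundant beta-crystallin, followed with 51897 ± 325 FPKM in aged EGCG, 60430 ± 4134 FPKM in aged control and 40900 ± 338 FPKM in young control libraries. Cryba1 and Cryba2 came next in that order in all 3 groups. The neighbours among these first 4 were separated by more than their spread in each group.

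The order of the remaining 4 differed between groups. Cryba4 had 9733 ± 206 FPKM in aged EGCG, 10432 ± 948 FPKM in aged control and 10486 ± 73.1 FPKM in young control libraries. Cryab had 8538 ± 127 FPKM in aged EGCG, 10489 ± 340 FPKM in aged control and 7140 ± 22.8 FPKM in young control libraries. Cryba4 therefore stood above Cryab in aged EGCG and young control libraries, while in aged control libraries their levels did not differ beyond their spread. Crybb1 was seventh in both aged groups and last in young control libraries, with 6552 ± 213, 6895 ± 289 and 6455 ± 69.9 FPKM in aged EGCG, aged control and young control libraries. Crybb3 was last in both aged groups, with 3803 ± 88.7 FPKM in aged EGCG and 4418 ± 324 FPKM in aged control libraries. It was sixth in young control libraries, at 8933 ± 79.0 FPKM, above both Cryab and Crybb1. Its place above Cryab depends on the implied lengths: of all counts in young control libraries, Cryab took 1.45% and Crybb3 0.920%.

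**Figure D1:**
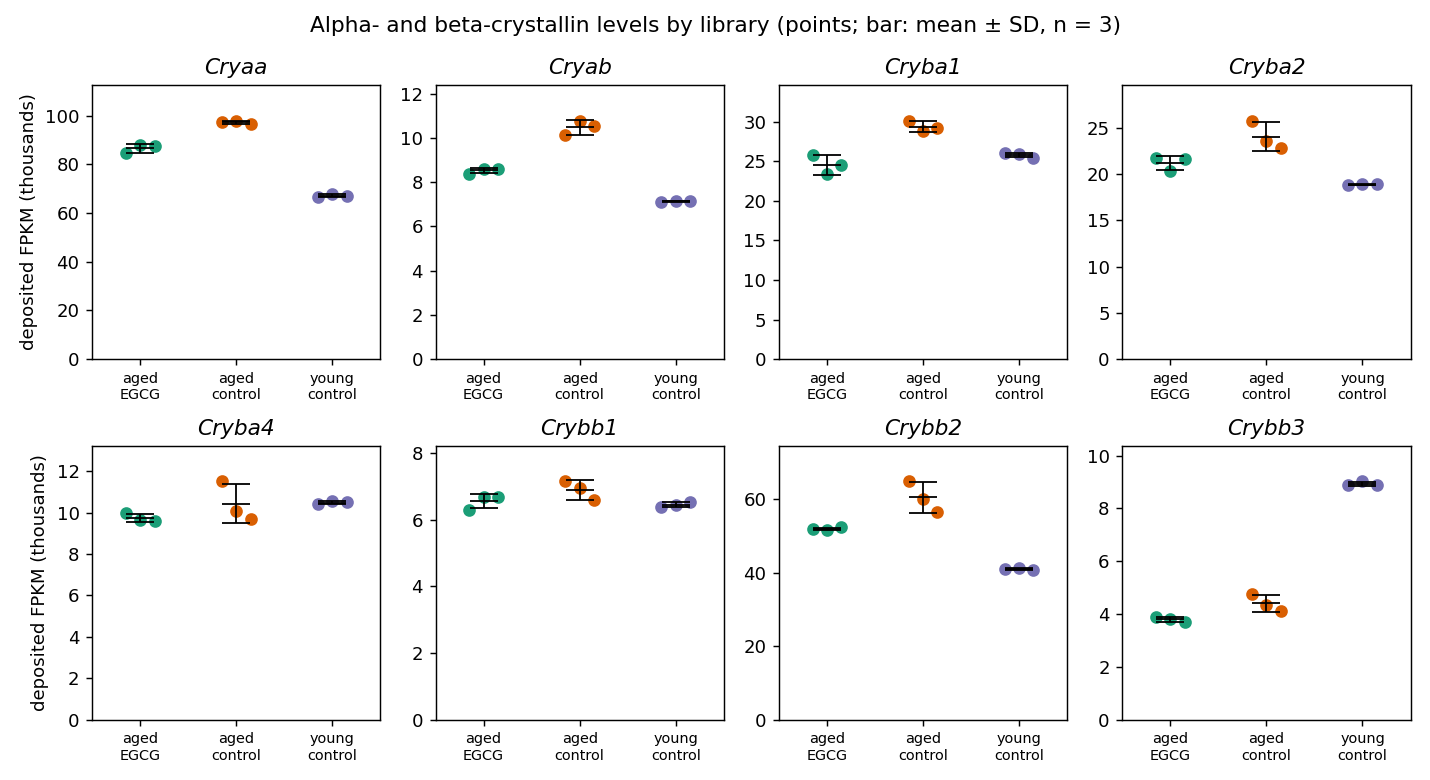
Deposited FPKM (divided by 1000, axes from 0) of each of the 8 crystallin genes in the 9 libraries, with 1 point per library and bars for the mean and SD of 3 libraries. Crybb3 is the gene whose young control libraries, at 8876 to 9023 FPKM, lie above both aged groups, whereas those of Cryaa and Crybb2 lie below them.

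The first comparison asks which of these transcripts differ with age. Levels within a gene are given from here on as TMM-scaled CPM, which are counts divided by the library total times its TMM factor, written CPM below. Cryaa had 132184, 130534 and 124918 CPM in the 3 aged control libraries, against 70383, 72548 and 71111 CPM in the 3 young control libraries. Cryab had 23402, 24477 and 23244 CPM in aged control libraries, against 12833, 13056 and 12870 CPM in young control libraries. Every aged control library lay above every young one for both alpha-crystallins, by a similar factor. The change was 1.81-fold for Cryaa (log2 fold change 0.86, SE 0.0278, adjusted p = 5.87e-30) and 1.84-fold for Cryab (0.88, SE 0.0319, adjusted p = 5.77e-28), by edgeR's quasi-likelihood test with Benjamini-Hochberg adjustment over all genes tested.

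Among the basic beta-crystallins, Crybb2 had 114872, 104454 and 95345 CPM in aged control libraries, against 56523, 57630 and 56089 CPM in young control libraries. This was a 1.85-fold rise (log2 fold change 0.89, SE 0.0357, edgeR adjusted p = 2.90e-26), as large as that of the alpha-crystallins. A higher log2 fold change was found for 10.8% of all genes tested, but the 66 other genes with a mean of at least 1000 CPM had a median of 0.85. Crybb3, the neighbour of Crybb2, went the other way, with 5579, 4998 and 4594 CPM in aged control libraries, against 8112, 8314 and 8093 CPM in young control libraries, a 1.62-fold fall (log2 fold change -0.69, SE 0.0428, edgeR adjusted p = 3.19e-19). The groups did not overlap for either gene. Crybb1 had 7867, 7511 and 6887 CPM in aged control libraries, against 5481, 5586 and 5601 CPM in young control libraries, and was called 1.34-fold higher (log2 fold change 0.42, SE 0.0386, edgeR adjusted p = 2.69e-13).

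The acidic beta-crystallins had smaller fold changes than Crybb2. Cryba1 had 27437, 25778 and 25258 CPM in aged control libraries, against 18439, 18561 and 18055 CPM in young control libraries, a 1.43-fold difference (log2 fold change 0.51, SE 0.0349, edgeR adjusted p = 1.12e-17). Cryba2 had 23354, 20964 and 19667 CPM in aged control libraries, against 13253, 13489 and 13345 CPM in young control libraries, a 1.60-fold difference (log2 fold change 0.67, SE 0.0389, edgeR adjusted p = 2.66e-20). Both were separated between the groups. Cryba4 had 13549, 11654 and 10871 CPM in aged control libraries, against 9548, 9782 and 9648 CPM in young control libraries, with the smallest change of the 8 (log2 fold change 0.32, SE 0.0434, edgeR adjusted p = 1.42e-08). Without TMM factors, on library totals alone, Cryba4 was level (log2 fold change -0.01).

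In all, 7 of the 8 genes were called higher and 1 lower with age, in a comparison in which 35.4% of all genes tested were called higher and 33.8% lower, 69.2% together. All 8 had groups that did not overlap, as did 72.1% of all genes tested, 36.9% with the aged control group higher and 35.3% with it lower. The median log2 fold change of the 8 was 0.59, against 0.02 over all genes tested. Other abundant transcripts moved in the same direction: of the 66 other genes with a mean of at least 1000 CPM, 51 were called higher and 12 lower, with a median log2 fold change of 0.85. In bulk tissue, fewer cells of a type and less RNA per cell cannot be told apart.

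**Figure D2:**
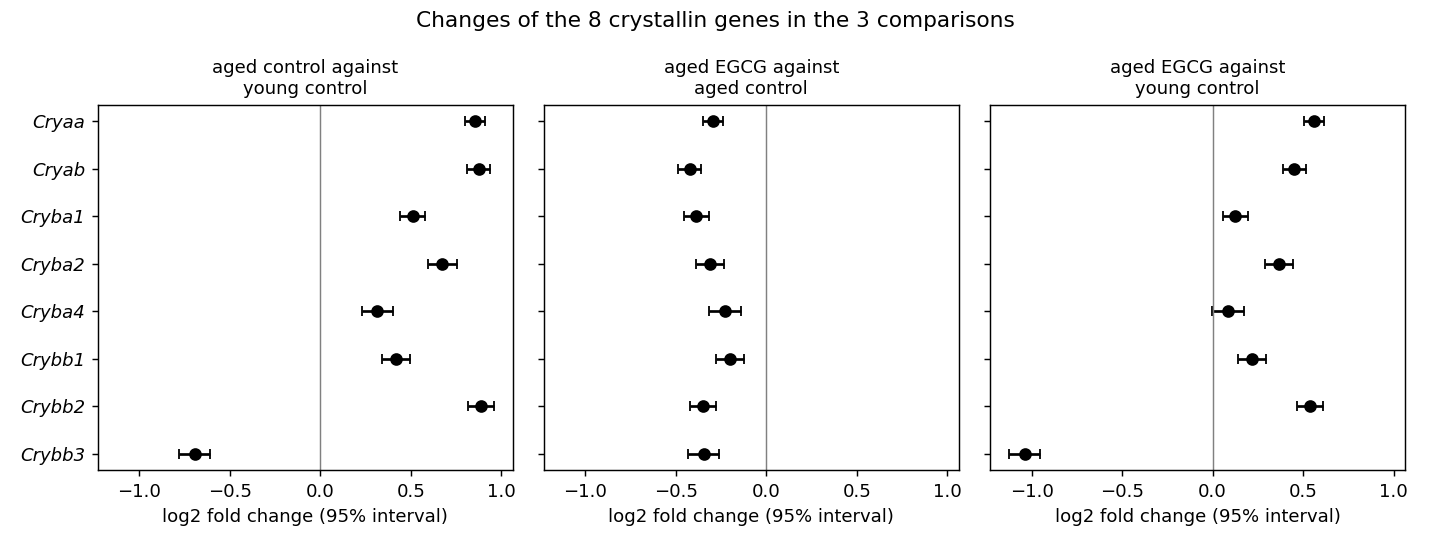
Log2 fold change of the 8 genes in the 3 comparisons (horizontal axis; points with 95% intervals from the edgeR fit). With age 7 points lie above 0 and Crybb3 below it, and with EGCG in aged capsules all 8 lie below 0, between -0.42 and -0.20.

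The scaling of the libraries bore on these values. TMM factors lay between 0.981 and 0.989 in aged EGCG, between 0.881 and 0.926 in aged control and between 1.119 and 1.131 in young control libraries. On library totals alone the median of all genes in aged control against young control libraries moved by -0.32, to -0.30, and that of the 8 crystallins stood at 0.27. A factor per library shifts all genes alike, so the distance between these medians is nearly kept by construction and tests nothing. Cryaa, Cryab, Cryba2 and Crybb2 were called higher and Crybb3 lower in 19 of 19 alternative settings. Cryba4, Crybb1 and Cryba1 were called higher in 15, 16 and 18 of them. The settings are not independent. They include leaving out each of the 9 libraries in turn, also the aged EGCG libraries, which are not part of this comparison.

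Gene length moved with the comparison as well. The lengths implied by the FPKM values were 797 to 2037 bases for the 8 genes, and the 2475 tested genes in that range had a median log2 fold change with age of 0.41, against 0.02 for all genes. After a trend with length was removed from each library, a setting chosen after the data had been seen, the change with age was 0.41 for Cryaa, 0.60 for Cryab, 0.51 for Crybb2 and -1.17 for Crybb3, and these 4 and Cryba2 (0.17) kept their calls. In that setting Cryba1 was level, at 0.01, and Cryba4 and Crybb1 turned to -0.16 and -0.07. The part of length in the result was not tested further.

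**Figure D3:**
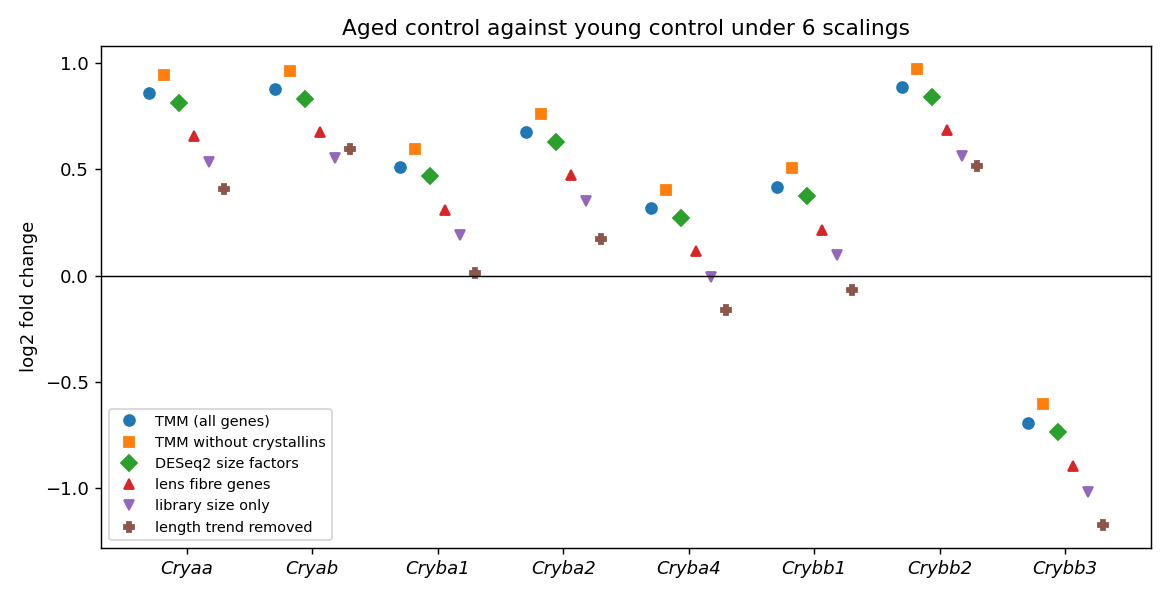
Log2 fold change of each gene in aged control against young control libraries (vertical axis) under 6 scalings, with 1 symbol per scaling. Cryaa, Cryab and Crybb2 stay above 0.4 and Crybb3 below -0.6 under all 6, whereas Cryba4 and Crybb1 cross 0.

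The second comparison asks what EGCG changed in aged capsules. It shares its aged control libraries with the first, so that a high aged control value enters both. Cryaa had 103136, 106803 and 105790 CPM in aged EGCG libraries, all below the 124918 to 132184 CPM of aged control libraries, and fell 1.23-fold (log2 fold change -0.30, SE 0.0276, edgeR adjusted p = 2.63e-12). Cryab, with 17432, 17831 and 17750 CPM in aged EGCG libraries against 23244 to 24477 CPM in aged control libraries, fell 1.34-fold, the largest change of the 8 (log2 fold change -0.42, SE 0.0317, edgeR adjusted p = 2.04e-15). The libraries of the groups did not overlap for either alpha-crystallin.

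Crybb2 had 82574, 81955 and 82555 CPM in aged EGCG libraries, against 95345 to 114872 CPM in aged control libraries, and fell by 0.35 on the log2 scale (SE 0.0355, edgeR adjusted p = 3.31e-11). Crybb3 had 4080, 3996 and 3864 CPM in aged EGCG libraries, against 4594 to 5579 CPM in aged control libraries, and fell by 0.35 as well (SE 0.0427, edgeR adjusted p = 6.49e-09). The neighbours that differed in direction with age had about the same log2 fold change with EGCG. Crybb1 had 6231, 6571 and 6548 CPM in aged EGCG libraries, against 6887 to 7867 CPM in aged control libraries, the smallest change of the 8 (log2 fold change -0.20, edgeR adjusted p = 5.11e-05).

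Of the acidic genes, Cryba1 had 21138, 19043 and 19871 CPM in aged EGCG libraries, against 25258 to 27437 CPM in aged control libraries (log2 fold change -0.39, edgeR adjusted p = 9.23e-13). Cryba2 had 17648, 16513 and 17465 CPM in aged EGCG libraries, against 19667 to 23354 CPM in aged control libraries (log2 fold change -0.31, edgeR adjusted p = 9.24e-09). Cryba4 had 10538, 10184 and 10044 CPM in aged EGCG libraries, against 10871 to 13549 CPM in aged control libraries (log2 fold change -0.23, edgeR adjusted p = 4.55e-05). The highest aged EGCG library lay just under the lowest aged control library for Cryba4, and further below it for the other genes of this class.

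All 8 genes were called lower with EGCG, where 10.3% of all genes tested were called lower, 13.8% higher and 24.1% in either direction. All 8 had groups without overlap, lower in aged EGCG libraries, as did 15.7% of all genes in that direction, 17.8% in the other and 33.5% in either. The median log2 fold change of the 8 was -0.33, against -0.00 over all genes. The fall was again common among abundant transcripts: of the 82 other genes with a mean of at least 1000 CPM, 55 were called lower and 5 higher, with a median of -0.17. The 2475 genes in the length range of the 8 had a median of -0.05. Cryaa, Cryab, Cryba1, Cryba2, Crybb2 and Crybb3 were called lower in 19 of 19 alternatives; Cryba4 and Crybb1 had negative values in all 19 and lost their call in some, with -0.04 and -0.02 when libraries were scaled to lens fibre genes. With that scaling the median of all genes moved by 0.19, to 0.18, and that of the 8 crystallins was -0.14.

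**Figure D4:**
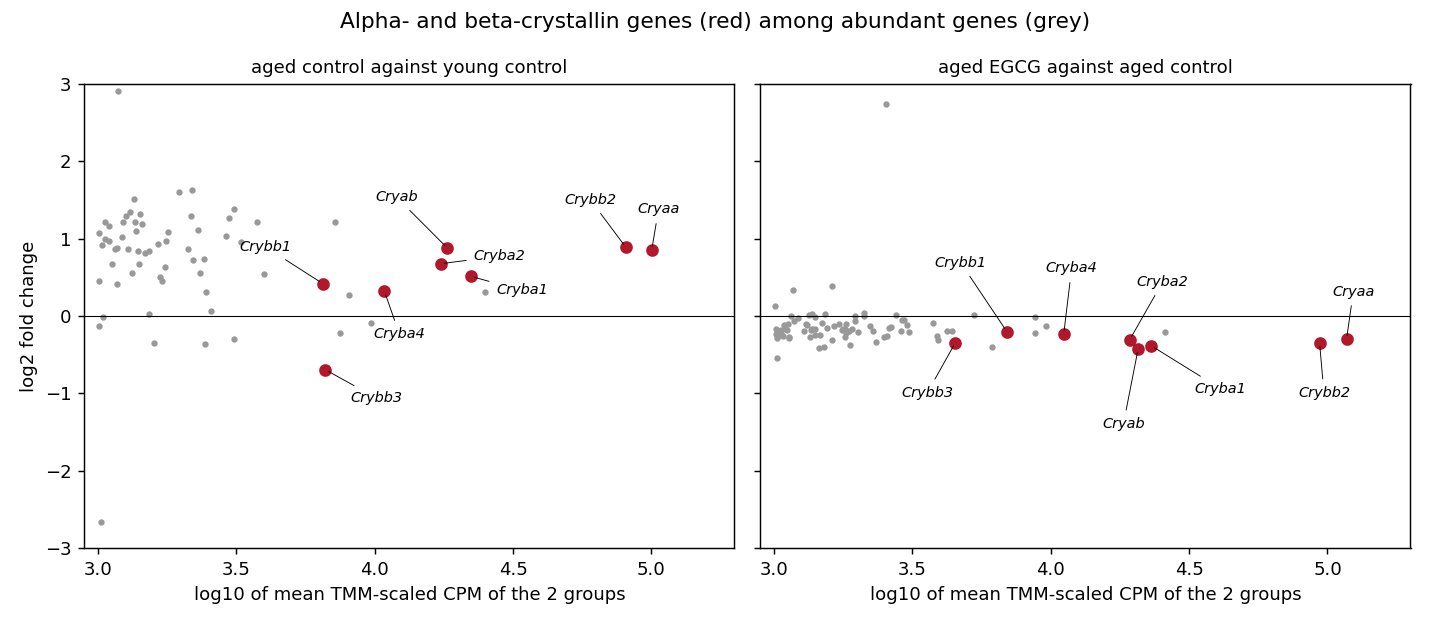
Log2 fold change (vertical axis, shown between -3 and 3) against log10 mean CPM for genes of at least 1000 CPM, with the 8 crystallin genes in red and others in grey. In aged control against young control 5 of 74 genes lie outside the plot, and in aged EGCG against aged control 1 of 90 does; the crystallins move with most abundant genes except Crybb3 on the left.

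The third comparison sets aged EGCG against young control capsules and shares libraries with both others. Cryaa averaged 105243 ± 1894 CPM in aged EGCG and 71347 ± 1102 CPM in young control libraries (log2 fold change 0.56, edgeR adjusted p = 1.60e-22). Crybb2 averaged 82361 ± 352 CPM in aged EGCG and 56747 ± 795 CPM in young control libraries (0.54, edgeR adjusted p = 6.10e-18), and Cryab 17671 ± 211 CPM in aged EGCG and 12920 ± 119 CPM in young control libraries (0.45, edgeR adjusted p = 5.16e-17). These 3 were called higher in 19 of 19 alternatives, but with the length trend removed their log2 fold changes were smaller, at 0.17 for Cryaa, 0.19 for Crybb2 and 0.18 for Cryab. Crybb3 averaged 3980 ± 109 CPM in aged EGCG and 8173 ± 123 CPM in young control libraries, 2.05-fold lower (log2 fold change -1.04, SE 0.0430, edgeR adjusted p = 2.38e-25), so that the difference from young capsules was wider in aged EGCG than in aged control capsules.

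The other 4 genes lay closer to the young level. Cryba2 (log2 fold change 0.36, edgeR adjusted p = 2.48e-11) and Crybb1 (0.22, edgeR adjusted p = 4.26e-06) were called higher in aged EGCG than in young control libraries, as was Cryba1 (0.13, edgeR adjusted p = 0.00170), which DESeq2 did not call (0.08, adjusted p = 0.0999). Cryba4 was not called, at 10255 ± 255 CPM in aged EGCG and 9659 ± 117 CPM in young control libraries (log2 fold change 0.09, 95% interval -0.000969 to 0.174, edgeR adjusted p = 0.0782), although the libraries did not overlap, and was called higher in 5 of 19 alternatives. On library totals alone, Cryba1 and Cryba4 turned to -0.07 and -0.11 and were called lower, and Crybb1 lost its call at 0.02. With the length trend removed, Cryba2 and Crybb1 turned to -0.02 and -0.18. In this comparison 6 of the 8 genes were called higher and 1 lower, where 32.3% of all genes tested were called higher and 31.4% lower, 63.6% together; the median was 0.29 for the 8 and -0.02 for all genes. The 2475 tested genes in the length range of the 8 had a median of 0.34, above that of the 8, whose own median was -0.10 once the length trend had been taken out. The libraries did not overlap for any of the 8, nor for 68.3% of all genes, 33.9% higher and 34.4% lower in aged EGCG libraries.

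Ratios between members of one library do not depend on how libraries are scaled. The ratio of Crybb3 to Crybb2 in FPKM was 0.0749, 0.0739 and 0.0710 in aged EGCG libraries, 0.0737, 0.0726 and 0.0731 in aged control libraries and 0.218, 0.219 and 0.219 in young control libraries. It was thus about the same in both aged groups (log2 difference 0.00), and far lower in aged control than in young control libraries (log2 difference -1.58). An exact two-sided permutation test of 3 against 3 libraries cannot go below p = 0.1, which it reached here for aged control against young control (adjusted p = 0.15 over 9 ratio tests); for aged EGCG against aged control its p was 0.9.

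The ratio of Cryab to Cryaa was 0.0986 ± 0.000611 in aged EGCG, 0.108 ± 0.00333 in aged control and 0.106 ± 0.000699 in young control libraries. It was lower in every aged EGCG library than in any aged control library (log2 difference -0.13), with an exact permutation p of 0.1, the smallest the design allows. With age the pair moved together (log2 difference 0.02, exact permutation p = 0.5). For the divergent neighbours, the ratio of Crybb1 to Cryba4 was 0.674 ± 0.0356 in aged EGCG, 0.663 ± 0.0365 in aged control and 0.616 ± 0.00522 in young control libraries, a small difference between aged control and young control libraries (0.11 on the log2 scale, exact permutation p = 0.1) and less than the spread between the aged groups (exact permutation p = 0.5).

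The make-up of the summed alpha- and beta-crystallin FPKM in both aged groups stood apart from that in young control libraries. Alpha-crystallins made up 44.7% ± 0.889 of it in aged EGCG, 44.3% ± 1.42 in aged control and 40.0% ± 0.182 in young control libraries. Crybb3 made up 1.79% ± 0.0507 in aged EGCG, 1.81% ± 0.0754 in aged control and 4.81% ± 0.0153 in young control libraries. The share of Crybb2 was 24.4% ± 0.0217 in aged EGCG, 24.8% ± 0.911 in aged control and 22.0% ± 0.101 in young control libraries, and that of Cryba1 was 11.5% ± 0.580, 12.1% ± 0.242 and 13.9% ± 0.158 in the same groups. The share of Cryba2 was similar throughout, at 9.98% ± 0.319 in aged EGCG, 9.89% ± 0.322 in aged control and 10.2% ± 0.0505 in young control libraries.

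**Figure D5:**
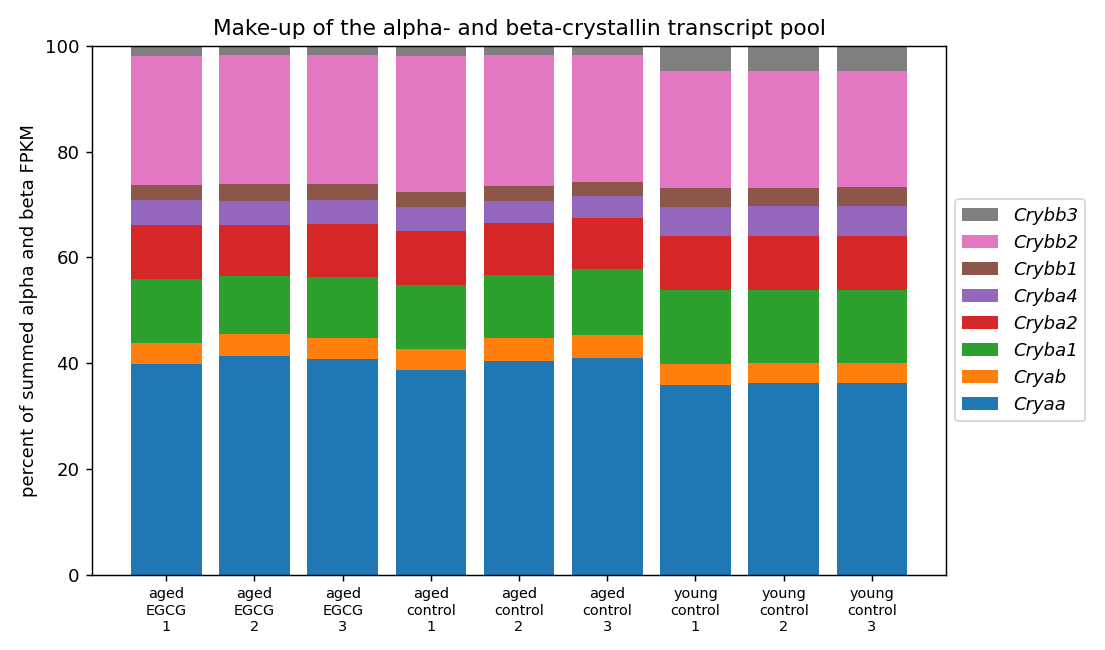
Share of each of the 8 genes in the summed alpha- and beta-crystallin FPKM (percent, vertical axis) in each of the 9 libraries. The Crybb3 segment at the top is 4.79% to 4.82% of the bar in young control libraries and at most 1.90% in the aged ones.

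The spread between libraries was widest in the aged control group for each gene but Cryba1, whose coefficient of variation was 4.35% there and 5.27% in aged EGCG libraries. The coefficient of variation of the 8 genes lay between 0.428% and 5.27% in aged EGCG, between 2.83% and 11.5% in aged control and between 0.892% and 1.54% in young control libraries, against medians of 2.63%, 4.58% and 1.17% for genes above 1000 CPM in those groups. Aged control library 1 was the highest and library 3 the lowest for each of the 6 beta-crystallins in CPM. Over the 9 libraries, 7 of the genes were positively correlated with one another on log2 CPM (Pearson r between 0.80 and 0.99), and Crybb3 was negatively correlated with each of them (r between -0.76 and -0.30). These values rest on 3 groups of libraries and describe mainly the differences between groups.

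Genes whose pattern over the 9 libraries was most like that of a member were sought among 1237 candidates of at least 100 CPM, by Pearson r on log2 CPM. Crybb2 was followed most closely by Bfsp2, a beaded filament protein of lens fibres (r = 0.997), Cryba4 by Lim2, a lens fibre membrane protein (r = 0.979), and Crybb3 by Birc7, an inhibitor of apoptosis (r = 0.993). For Cryaa the closest were the glutathione transferase Gstm1 (r = 0.998), Phgdh and Clu, and for Cryab they were Nap1l1 (r = 0.997), Actb and Sparc. Cryba1 was followed by Laptm4a (r = 0.981) and then by Crygs, Cryba2 by the ribosomal protein gene Rpl26 (r = 0.993), and Crybb1 by the amino acid transporter subunit Slc3a2 (r = 0.983). Ribosomal protein genes were also among the 3 closest for Crybb2 (Rps13, r = 0.994), Cryba1 (Rpl39, r = 0.971) and Cryba4 (Rpl36, r = 0.969).

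Of 32 regulators of crystallin transcription and lens differentiation, 18 were called higher and 4 lower in aged control than in young control libraries, with a median log2 fold change of 0.45. Of all genes tested, 35.4% were called higher and 33.8% lower there, 69.2% together. Maf had 286 ± 3.09 CPM in aged control and 180 ± 5.26 CPM in young control libraries (log2 fold change 0.67, edgeR adjusted p = 8.69e-16), and Pitx3, a lens homeobox factor, 125 ± 17.4 CPM in aged control and 46.8 ± 3.99 CPM in young control libraries (1.42, edgeR adjusted p = 8.52e-22). Hmx1 (1.51) and the growth factor receptor Fgfr3 (0.87) also rose, Tfap2b fell by 3.92, and Pax6 was not called (0.06, edgeR adjusted p = 0.356). On library totals alone 13 rose and 8 fell (median 0.13), where the median of all genes was -0.30.

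With EGCG in aged capsules, 2 of the 32 regulators were called higher and 8 lower, with a median of -0.11. Of all genes tested, 13.8% were called higher and 10.3% lower there. Maf had 231 ± 16.5 CPM in aged EGCG and 286 ± 3.09 CPM in aged control libraries (log2 fold change -0.30, edgeR adjusted p = 7.03e-06), Pax6 126 ± 5.26 CPM in aged EGCG and 158 ± 7.10 CPM in aged control libraries (-0.33, edgeR adjusted p = 7.21e-06), and Foxe3, a factor of the lens epithelium, fell by 0.33. Tfap2b was higher in aged EGCG libraries by 2.07. These counts moved with the scaling of all genes: on library totals alone 5 rose and 4 fell (median 0.02, all genes 0.12), and with the lens fibre scaling 6 rose and 3 fell (median 0.07, all genes 0.18). Such scalings shift all genes by about the same amount, so the distance between these medians cannot change much and tests nothing. Against young control libraries, 16 of the 32 regulators were called higher and 8 lower in aged EGCG libraries. Of all genes tested, 32.3% were called higher and 31.4% lower there.

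The other small heat shock genes, relatives of the alpha-crystallins, did not move as one group. Of the 6 tested, 4 were called higher and 2 lower with age, where 35.4% of all genes tested were called higher and 33.8% lower. Hspb1, the most abundant of them, had 459 ± 22.8 CPM in aged control and 1276 ± 4.70 CPM in young control libraries, a fall of 1.47 on the log2 scale (edgeR adjusted p = 2.06e-29), opposite to Cryaa and Cryab, and Hspb6 fell by 1.67. With EGCG in aged capsules 1 was called higher (Hspb6, 1.39) and 4 lower, among them Hspb1, at 329 ± 29.1 CPM in aged EGCG and 459 ± 22.8 CPM in aged control libraries (log2 fold change -0.48, edgeR adjusted p = 4.91e-11). Of all genes tested, 13.8% were called higher and 10.3% lower there. Hspb2, which overlaps Cryab, was called higher with age (1.06) and lower with EGCG (-0.39).

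The gamma-crystallins, the closest relatives of the beta-crystallins, were mostly lower with age. Of 8 tested, 7 were called lower and 1, Crygs, higher in aged control than in young control libraries. Among all genes tested, 33.8% were called lower and 35.4% higher there. Crygb had 135 ± 3.45 CPM in aged control and 13453 ± 163 CPM in young control libraries (log2 fold change -6.64), although Crygb, Crygc and Crygd are close paralogs between which the counting could split reads. Crygs had 27687 ± 1337 CPM in aged control and 22338 ± 465 CPM in young control libraries (log2 fold change 0.31, edgeR adjusted p = 3.28e-11), close to Cryba4, and like Cryba4 was level on library totals alone (-0.01). With EGCG in aged capsules 5 of the 8 were called lower and none higher, Crygs by 0.20 on the log2 scale. Among all genes tested, 10.3% were called lower and 13.8% higher there.

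The lens cell markers were present in all libraries: all 26 lens fibre and all 25 lens epithelium genes of the lists passed the filter. Their summed counts took 4.02% to 4.14% and 1.38% to 1.44% of the counts in aged EGCG, 4.17% to 4.36% and 1.48% to 1.57% in aged control, and 4.97% to 4.98% and 1.21% to 1.23% in young control libraries. Markers of other tissues also differed between the groups, retinal ones most in abundance. The 34 retinal genes, none of them at 0 in any library, summed to 1.27% to 1.29% of the counts in aged EGCG, 0.205% to 0.214% in aged control and 3.24% to 3.26% in young control libraries. All 34 were called lower in aged control than in young control libraries, as were 33.8% of all genes tested. In aged EGCG against aged control libraries 33 were called higher, as were 13.8% of all genes tested. Red blood cell genes took 0.00645% to 0.00746% in aged EGCG, 0.00464% to 0.00552% in aged control and 0.0285% to 0.0286% in young control libraries, and cornea epithelium genes 0.181% to 0.186% in aged EGCG, 0.208% to 0.217% in aged control and 0.0896% to 0.0918% in young control libraries. Endothelial and mural genes took 0.0635% to 0.0674% in aged EGCG, 0.0785% to 0.0842% in aged control and 0.0578% to 0.0609% in young control libraries, and iris and ciliary pigment genes 0.0216% to 0.0224%, 0.0289% to 0.0294% and 0.0343% to 0.0352% in the same groups, while immune genes took at most 0.00483% in any library. Acta2 alone had 739 of the 903 summed CPM of the endothelial and mural genes in aged control libraries. Of these 10 genes, 7 were called lower and 2 higher with age, where 33.8% of all genes tested were called lower and 35.4% higher. Against young control libraries, 8 of the 10 were called lower and 2 higher in aged EGCG libraries, where 31.4% of all genes tested were called lower and 32.3% higher. The summed retinal and red blood cell shares ran in the opposite order of the crystallin share, and the summed lens epithelium, cornea and endothelial shares in the same order. Aldh3a1 and Tkt had 1068 and 1240 of the 2356 summed CPM of the cornea genes in aged control libraries. Of the 8 cornea genes tested, 5 were called higher and 2 lower with age. The keratins Krt5 and Krt12 had 0.673 and 0.742 CPM in aged control and 5.33 and 2.99 CPM in young control libraries. The order of the cornea and endothelial sums therefore did not hold for each of their genes. The part of these tissue shares in the crystallin differences was not tested.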

How the data were processed

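RNA was measured in 9 libraries of mouse anterior lens capsule, for which the labels' protocols name a SMARTER mRNA-Seq kit. The genome build was GRCm38 (mm10), per the submitters' processing notes. The sources used here do not name the aligner, counter, annotation or strand setting. Raw whole-number read counts per gene symbol were deposited by the authors, together with FPKM values. Each of the 138164 nonzero FPKM entries was reproducible to 0.01% from the count, the library total and a fixed gene length.

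Counts of 13711 genes that passed filterByExpr were tested with the quasi-likelihood test of edgeR 4.0.16 (R 4.3.3) with TMM factors, in 1 fit of 3 group means without a replicate block. P-values were two-sided and adjusted by Benjamini-Hochberg over all genes tested, with a call at an adjusted p under 0.05. The biological coefficient of variation was 7.89%, and intervals cover the spread between libraries and counting error only. Log2 fold changes put the aged EGCG or aged control group over its control. Alternatives were DESeq2 1.42.0, limma 3.58.1 on log2(FPKM + 1) and log2(FPKM + 0.1), other scalings and filters, libraries left out, and a replicate block; a length correction was added after the data had been seen. The script was tested on simulated data.

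The 8 genes, the lists and the motifs were chosen with earlier results of these data known. All 8 genes are named. The 3 genes most like each had a mean of at least 100 CPM and the highest r, and from each list described up to 4 genes with the smallest p were named. Pax6, Maf with age, Hspb2 and genes that spell out small counts were chosen after their values were seen.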

Additional observations from a re-analysis of the deposited data

How the results depend on the processing

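Of the changes of single genes, none changed sign in aged EGCG against aged control under the 19 alternatives. In aged control against young control, Cryba4 turned to -0.00795 on library totals alone, to -0.0113 with either pseudocount on FPKM and to -0.164 with the length trend removed, a setting added after seeing the data, which also turned Crybb1 to -0.0680. In aged EGCG against young control, Cryba1 and Cryba4 turned to -0.0691 and -0.108 on library totals alone, to -0.0698 and -0.108 with either pseudocount on FPKM, and to -0.259 and -0.309 with the length trend removed, which turned Cryba2 to -0.0182 and Crybb1 to -0.177. The number of crystallin genes called lower there was 3 on library totals alone, where 5575 of all 13711 genes tested were called lower. With the length trend removed, 4 crystallin genes were called higher and 3 lower in aged control against young control. Of all 13711 genes, 4640 were called higher and 4523 lower in that setting. In aged EGCG against young control, 3 crystallin genes were then called higher and 4 lower, and of all genes 4111 higher and 4123 lower. The cause was not tested beyond these settings. With each library left out in turn, the counts called higher and lower were 7 to 7 and 1 to 1 with age, 0 to 0 and 8 to 8 for aged EGCG against aged control, and 6 to 7 and 1 to 1 for aged EGCG against young control. In aged EGCG against young control, Cryba4 was called higher in 5 of 19 alternatives: without aged control library 1 (adjusted p = 0.00571) or 3 (0.0121), without the low count filter (0.0107), with only the groups compared in the fit (0.00182) and with the replicate block; it was called lower on library totals alone and with the length trend removed.

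The labels do not say that equal replicate numbers pair the samples, so the main fit took no pairing. The deviations of libraries of the same number had r between -0.0378 and 0.0636. In aged EGCG against aged control each library correlated best with its own number, a hint from the data and not the design. With a replicate block, 7 crystallin genes were called higher with age and 7 in aged EGCG against young control, since Cryba4 was then called (log2 fold change 0.09, adjusted p = 0.0255); no other call changed. Depth limits none of these values, since the lowest crystallin level was 3864 CPM; the number of libraries does, and the permutation tests of ratios could not reach 0.05.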
